A study of Mus musculus with 70 samples.

Results

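The ephrin, netrin and Slit guidance genes were taken as every row of the gene-level expression table whose symbol names an Eph receptor, an ephrin, a Slit, a Robo, a netrin, a netrin-G, an Unc5 receptor or Dcc. This rule found 39 of 34677 genes, made up of 14 Eph receptors, 8 ephrins, 7 Slit and Robo genes and 10 netrin, netrin-G, Unc5 and Dcc genes. All 39 passed the filter on low counts and were among the 19960 genes tested.

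Expression was measured by mRNA sequencing in 70 mouse libraries. The 57 adult libraries came from punches of frozen brain at P56 in male mice labelled C57BL/6, which the study's methods give as C57BL/6NTac, and cover 18 regions. They are the cortex (anterior cingulate area, ACA; frontal pole, FRP; entorhinal area, ENT), the nucleus accumbens (ACB), the hypothalamus (arcuate, ARH; dorsomedial, DMH; lateral area, LHA; paraventricular, PVH; ventromedial, VMH), the ventral tegmental area (VTA), the hindbrain nuclei (parabrachial nucleus, PB; nucleus of the solitary tract, NTS; dorsal-vagal complex, DVC), the cerebellar lobules (central lobule, CENT2; culmen, CUL4-5; uvula, UVU; flocculus, FL) and the cerebellar nuclei (CBN). The 9 embryonic libraries came from E14.5 embryos of the same substrain, with 1 library of forebrain (F), 3 of terminal and peduncular hypothalamus (THy-PHy), 2 of midbrain (M) and 3 of hindbrain (H). The 4 mESC libraries came from 2 clones of C57BL/6 mouse embryonic stem cells, B6-1 and B6-2, with 2 libraries each and no substrain named. The labels give no mutation and no experimental treatment for any group. Tissue of several mice or embryos was pooled for each brain library, apart from 1 ACB library made from 1 mouse, and the spread between replicates is therefore that between pools. The regions were punched from a shared set of mice, so that libraries of different regions can hold the same animals. By the study's sample overview, no batch held samples of more than 1 of the adult, embryonic and mESC stages, so that stage and batch cannot be told apart.

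Ephrins are ligands held on the cell surface, and the Eph receptors that bind them are receptor tyrosine kinases. A growing axon that meets an ephrin usually turns away from it. A-class ephrins are anchored by a lipid and B-class ephrins span the membrane, so that the ligand can also signal back into its own cell. Slits are secreted repellents read by Robo receptors, and netrins are secreted cues that attract through Dcc and repel through Unc5 receptors. Netrin-Gs are anchored to the membrane and act at synapses through Lrrc4 proteins rather than through Dcc. In the adult brain, members of these families stay present at synapses and in blood vessels.

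Total estimated counts per library ranged from 9074581 to 22229582, with a median of 17016935. In the tables of markers, the pluripotency genes Pou5f1, Nanog and Zfp42 summed to between 1612 and 1707 TPM (the unit of transcript abundance scaled to the same total in each library) in the mESC libraries and to at most 5.33 TPM in any adult library. The striatal markers Drd1, Ppp1r1b and Rgs9 were at 1662 to 2202 TPM in ACB and the granule cell markers Gabra6, Cbln3 and Neurod1 at 591 to 1832 TPM in the lobules. In PB the hindbrain marker Hoxa5 was listed at 0. VTA replicate 1 and H replicate 1 stood apart by the share of their TPM on mitochondrial genes, with 39.6% and 22.6% against a median of 7.49%. TPM values of other genes are lowered in such libraries, whereas the count test rescales between libraries.

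The promoters of 4 members that lead the comparisons are shown as a sequence background to the values that follow. Each is the 250 bases before the RefSeq transcription start in GRCm38.p6, written 5′ to 3′ on the strand of the gene. Capitals mark GC boxes, which are matches to GGGCGG or its reverse complement CCGCCC. Robo3 (chr9:37433176-37433425, minus strand) and Efna4 (chr3:89338029-89338278, minus strand) had the largest embryonic excess of all members. Ephb6 (chr6:41605261-41605510, plus strand) had the largest fold of the Eph receptors in the cortex, and Ntn4 (chr10:93640799-93641048, plus strand) was high in the cerebellar lobules. In the gene annotation used to sum the counts, Ntn4 starts at chr10:93640681, so its window lies inside that gene model. The windows of Robo3 and Ephb6 overlap their gene models in part.
Robo3: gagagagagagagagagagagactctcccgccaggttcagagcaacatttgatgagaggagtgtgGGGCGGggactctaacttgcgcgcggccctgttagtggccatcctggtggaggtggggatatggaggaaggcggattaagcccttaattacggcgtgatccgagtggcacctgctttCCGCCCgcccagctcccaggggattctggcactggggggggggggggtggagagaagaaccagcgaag
Efna4: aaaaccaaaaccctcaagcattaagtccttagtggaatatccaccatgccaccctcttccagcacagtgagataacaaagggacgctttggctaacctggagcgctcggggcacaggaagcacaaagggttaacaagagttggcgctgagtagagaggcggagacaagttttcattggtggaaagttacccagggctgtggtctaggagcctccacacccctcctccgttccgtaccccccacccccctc
Ephb6: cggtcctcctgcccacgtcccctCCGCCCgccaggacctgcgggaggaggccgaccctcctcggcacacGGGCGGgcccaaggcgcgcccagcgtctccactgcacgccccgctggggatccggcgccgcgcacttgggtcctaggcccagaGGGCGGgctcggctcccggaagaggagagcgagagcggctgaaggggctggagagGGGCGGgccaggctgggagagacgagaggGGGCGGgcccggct
Ntn4: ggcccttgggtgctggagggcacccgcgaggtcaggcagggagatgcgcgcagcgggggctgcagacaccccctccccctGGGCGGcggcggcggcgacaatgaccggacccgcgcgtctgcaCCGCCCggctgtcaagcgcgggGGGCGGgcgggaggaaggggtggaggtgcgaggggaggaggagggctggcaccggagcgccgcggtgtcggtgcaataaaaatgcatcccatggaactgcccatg
Robo3 held 2 GC boxes in this window, Efna4 held 0, Ephb6 held 5 and Ntn4 held 3. Of the 39 promoter windows that RefSeq lists for 34 members, 26 (66.7%) held at least 1 GC box, beside 32.7% of 32851 windows of all genes. Median GC content was 64.4% in the members' windows and 52.4% in all windows, and 5 members had no entry. Such matches describe the sequence and are not measured binding.

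Levels were read as TPM, which is per length and can be compared between genes. Of the 39 genes, 35 had a mean of 10 TPM or more in at least 1 group, 32 had 1 TPM or more in all 18 adult regions, and 17 had 1 TPM or more in all 24 groups. The group with the highest mean was embryonic for 18 genes, adult for 20 and mESC for 1. Embryonic midbrain alone was highest for 8 genes. Among the adult regions, the highest mean lay in the cortex for 12 genes, in the cerebellar lobules for 11, in the hypothalamus for 8, in the nucleus accumbens for 4, and in CBN and in the hindbrain nuclei for 2 each. The highest group was not counted over all genes, so these counts describe the 39 genes only.

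**Figure D1:**
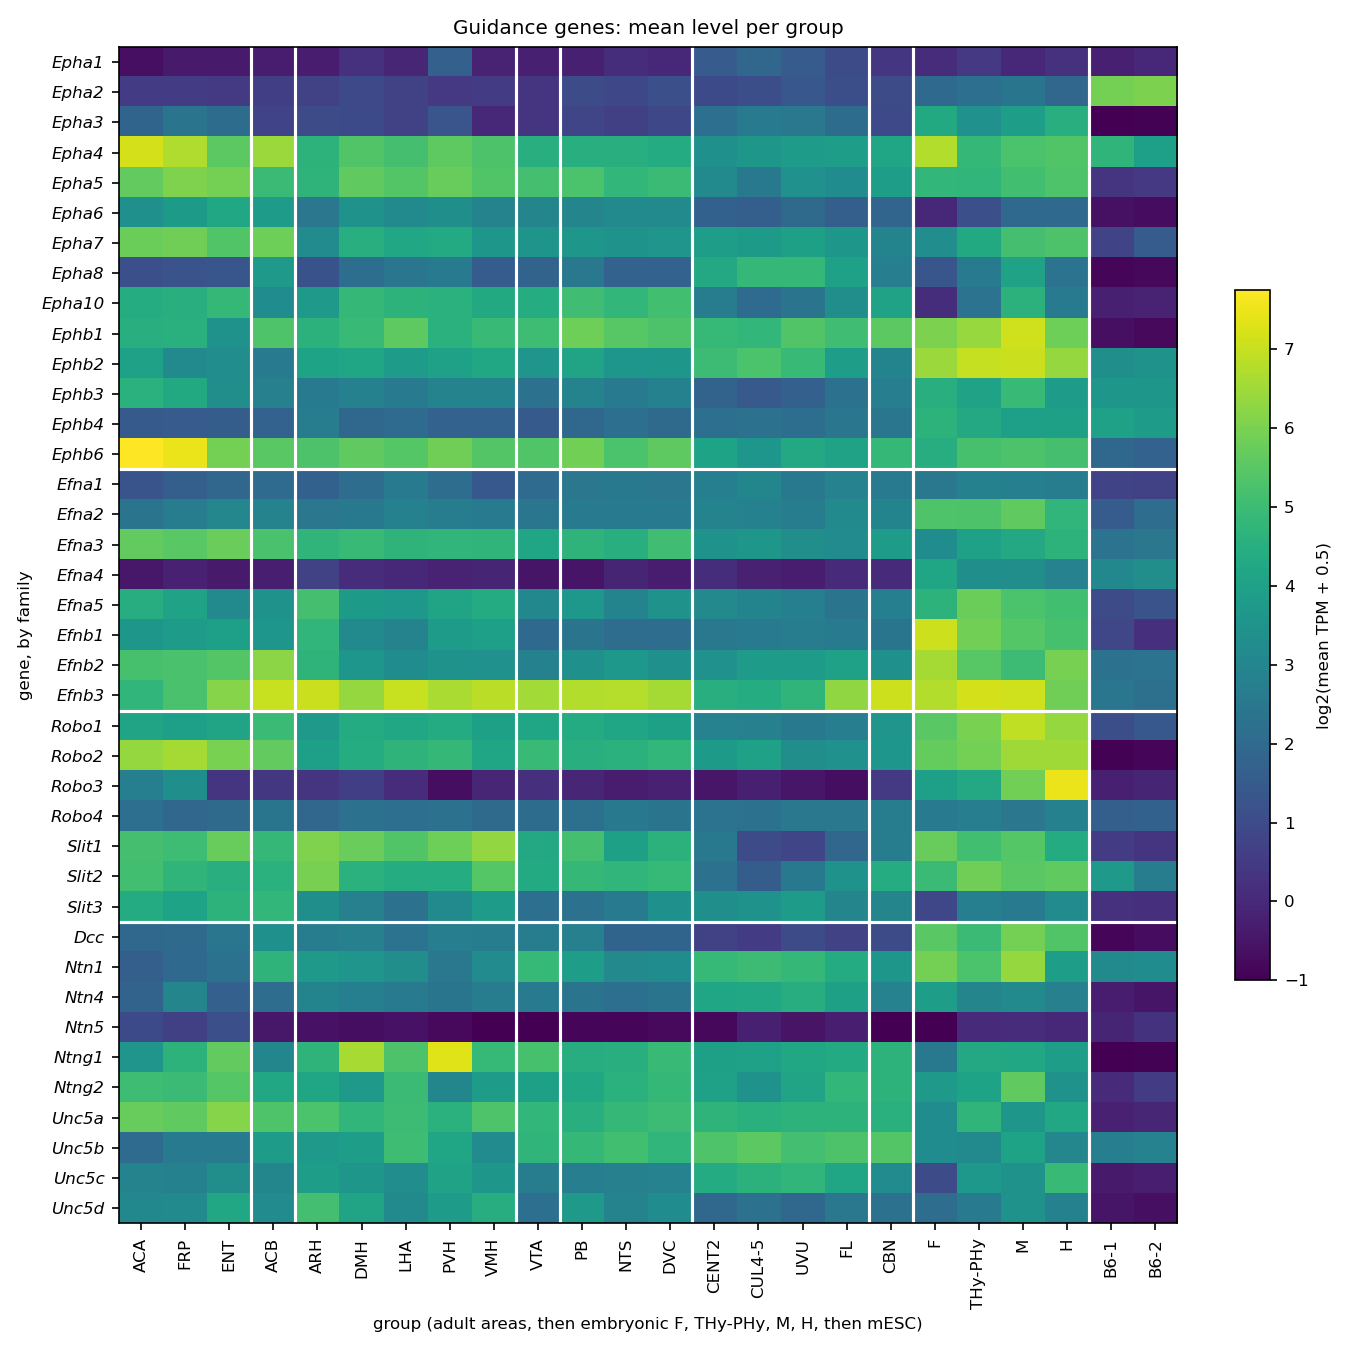
Mean TPM of the 39 guidance genes (rows, by family) in the 24 groups (columns, adult, embryonic, then mESC), coloured on a log2(TPM + 0.5) scale. Brighter colours are higher levels. Robo3 is brighter in the embryonic columns, where its mean reached 181 TPM in H, than in the adult ones. Epha2 is bright in mESC, and Slit1 is darker in the cerebellar lobules than in the other adult columns.

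Summed over a family, the ligands and receptors shifted between stages to different degrees. Robo receptors together had 117 to 427 TPM in the embryonic libraries (median 254) and 16.4 to 134 TPM in the adult libraries (median 44.1). The 5 ephrin-A ligands summed to 73.0 to 136 TPM in the embryo (median 122) and up to 80.3 TPM in the adult (median 46.8), and for EphB receptors the medians were 260 and 100 TPM. For EphA receptors (medians 148 and 112 TPM) and for Dcc with the Unc5 receptors (101 and 82.0 TPM) the ranges of the stages overlapped widely. In mESC the EphA receptors had the largest sum, most of it Epha2, with a median of 85.4 TPM, and the EphB receptors followed at 39.2 TPM.

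Embryonic brain was compared with adult brain to ask how the guidance genes differ between the stage of axon growth and the mature brain. The 4 embryonic parts and the 18 adult regions are not matched in anatomy, and F, as 1 library, has the same weight as each other part. In this comparison, stage and the make-up of regions cannot be told apart. A gene was called at a Benjamini-Hochberg adjusted p under 0.05 over all genes tested and an absolute log2 fold change above 1, with edgeR's quasi-likelihood test on the counts, and the same rule applies to every comparison between groups. Of the 39 genes, 19 were higher in the embryo, where 18.2% of all genes were, and 5 were lower, where 19.5% of all genes were. The median log2 fold change of the 39 genes was 0.65, beside 0.01 over all genes. The genes that rose included 5 of 8 ephrins, 7 of 14 Eph receptors and 5 of 7 Slit and Robo genes, but only 2 of the 10 netrin, netrin-G, Unc5 and Dcc genes.

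Robo3, which lets commissural axons cross the midline, showed the largest difference of the 39. Its TPM was 14.7 in F, 16.8 to 21.3 in THy-PHy, 60.0 and 56.5 in M, and 139, 197 and 206 in H, while the 57 adult libraries had a lowest value of 0.0604, a median of 0.455 and a highest of 12.7 TPM. All embryonic libraries lay above all adult libraries. The log2 fold change was 6.08 ± 0.09 (SE), or 67.9-fold, with an adjusted p of 3.67e-47. Robo1, a receptor of the Slits, ran from 45.2 to 121 TPM in the embryo (median 76.2) and from 4.56 to 35.9 TPM in the adult (median 15.4), without overlap (log2 fold change 2.38 ± 0.07, adjusted p 2.57e-35). Robo2, another Slit receptor, rose by 1.65 ± 0.07 (adjusted p 4.07e-27), and its adult level reached 109 TPM in the cortex.

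The Slit ligands went in both directions. Slit2 had a median of 51.8 TPM in the embryo and 21.3 TPM in the adult (log2 fold change 1.30 ± 0.20), and Slit1 medians of 32.4 and 28.0 TPM (1.07 ± 0.21), with adult ranges of 0.601 to 63.1 and 0.0760 to 87.2 TPM that took in the lobules. Slit3 was lower in the embryo (-1.18 ± 0.11, adjusted p 9.87e-15). The calls of Slit1 and Slit3 were lost without the single F library, where the log2 fold changes were 0.92 and -0.64, and that of Slit1 also without M replicate 2, at 0.96, and on the log2(TPM + 0.5) scale, at 0.96. Robo4, the endothelial Robo, ran from 3.16 to 11 TPM in the embryo and from 1.31 to 7.35 TPM in the adult and was not called.

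Among the ephrins, Efna4 rose most. It had 17.4 TPM in F and 4.90 to 13.4 TPM in the other embryonic libraries, and 0.00 to 1.56 TPM in the adult libraries (median 0.363), so the stages did not overlap. Its log2 fold change was 4.66 ± 0.18, or 25.3-fold, with an adjusted p of 6.47e-30. Efnb1 had 134 TPM in F and a median of 49.2 TPM in the embryo against 6.35 TPM in the adult (2.98 ± 0.05, adjusted p 7.31e-45). Efna2 ran from 17.3 to 62.7 TPM in the embryo and from 2.22 to 9.75 TPM in the adult (2.62 ± 0.08, adjusted p 1.49e-33). Efna5 and Efnb2, ligands in topographic mapping and in arteries, rose by smaller folds of 3.30 and 3.14, and their ranges overlapped those of the adult libraries. Efna1 (log2 fold change 0.52), Efna3 (-0.59) and Efnb3 (0.56) did not pass the fold threshold.

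Of the Eph receptors, Ephb2 rose most. Its embryonic libraries had 85.5 TPM in F, 103 to 142 TPM in THy-PHy, 137 and 126 TPM in M and 52 to 100 TPM in H, and the adult libraries 4.42 to 41.0 TPM. The log2 fold change was 3.51 ± 0.05, or 11.4-fold, with an adjusted p of 3.86e-50, and no adult library reached the lowest embryonic one. Epha3 (9.34 to 29.5 against 0.438 to 6.93 TPM, log2 fold change 3.03 ± 0.09, adjusted p 2.26e-35) and Ephb4, a receptor of veins (11 to 24.5 against 0.998 to 6.37 TPM, 2.39 ± 0.08, adjusted p 1.64e-32), also had stages that did not overlap. Epha2, Ephb3 and Ephb1 followed with folds of 3.35, 3.05 and 2.49.

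The receptors did not all fall with age. Epha10, an Eph receptor without kinase activity, had an embryonic median of 5.33 TPM and an adult median of 21.3 TPM (log2 fold change -2.21 ± 0.18, adjusted p 5.55e-16). Epha6 had medians of 2.51 and 7.60 TPM (-2.06 ± 0.17, adjusted p 1.27e-15). Both were lowest in the F library, with 0.597 and 0.514 TPM, and without it the log2 fold changes were -1.28 and -1.47. Epha7 was called higher on the counts (1.10 ± 0.08), but the difference in TPM was 0.34 on the log2(TPM + 0.5) scale and was not past the fold threshold, nor was that on the counts without M replicate 1 (0.98). Epha4 (0.57), Epha5 (0.26), Epha1 (0.06), Epha8 (0.05) and Ephb6 (-0.82) were not called.

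In the netrin group, Dcc, the netrin receptor of attraction, was the member with the largest rise. Its TPM was 45.4 in F, 15.6 to 40.5 in THy-PHy, 62.6 and 58.3 in M and 26.3 to 48.4 in H, against 0.424 to 11.8 TPM in the adult libraries (median 3.43), again without overlap. The log2 fold change was 3.64 ± 0.10, or 12.4-fold, with an adjusted p of 1.33e-36. Ntn1, the attractant itself, had a wide embryonic range of 3.92 to 121 TPM and an adult one of 2.64 to 38.9 TPM (1.75 ± 0.10, adjusted p 7.49e-22). Of the 4 repulsive Unc5 receptors 2 were called lower, with Unc5a at an embryonic median of 19.9 TPM and an adult median of 28.4 TPM (-1.40 ± 0.07, adjusted p 4.95e-24) and Unc5b at 9.07 and 29.1 TPM (-1.03 ± 0.09, adjusted p 2.3e-14). Without M replicate 2 Unc5b stood at -0.95, and on the log2(TPM + 0.5) scale at -0.92. Unc5c (-0.35), Unc5d (-0.52), Ntn4 (0.38), Ntng1 (-0.99) and Ntng2 (-0.21) did not pass. Ntn5 was at 0.00 to 1.17 TPM in the embryo and had 0 counts in all libraries of some groups, so that no fold is given for it here.

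**Figure D2:**
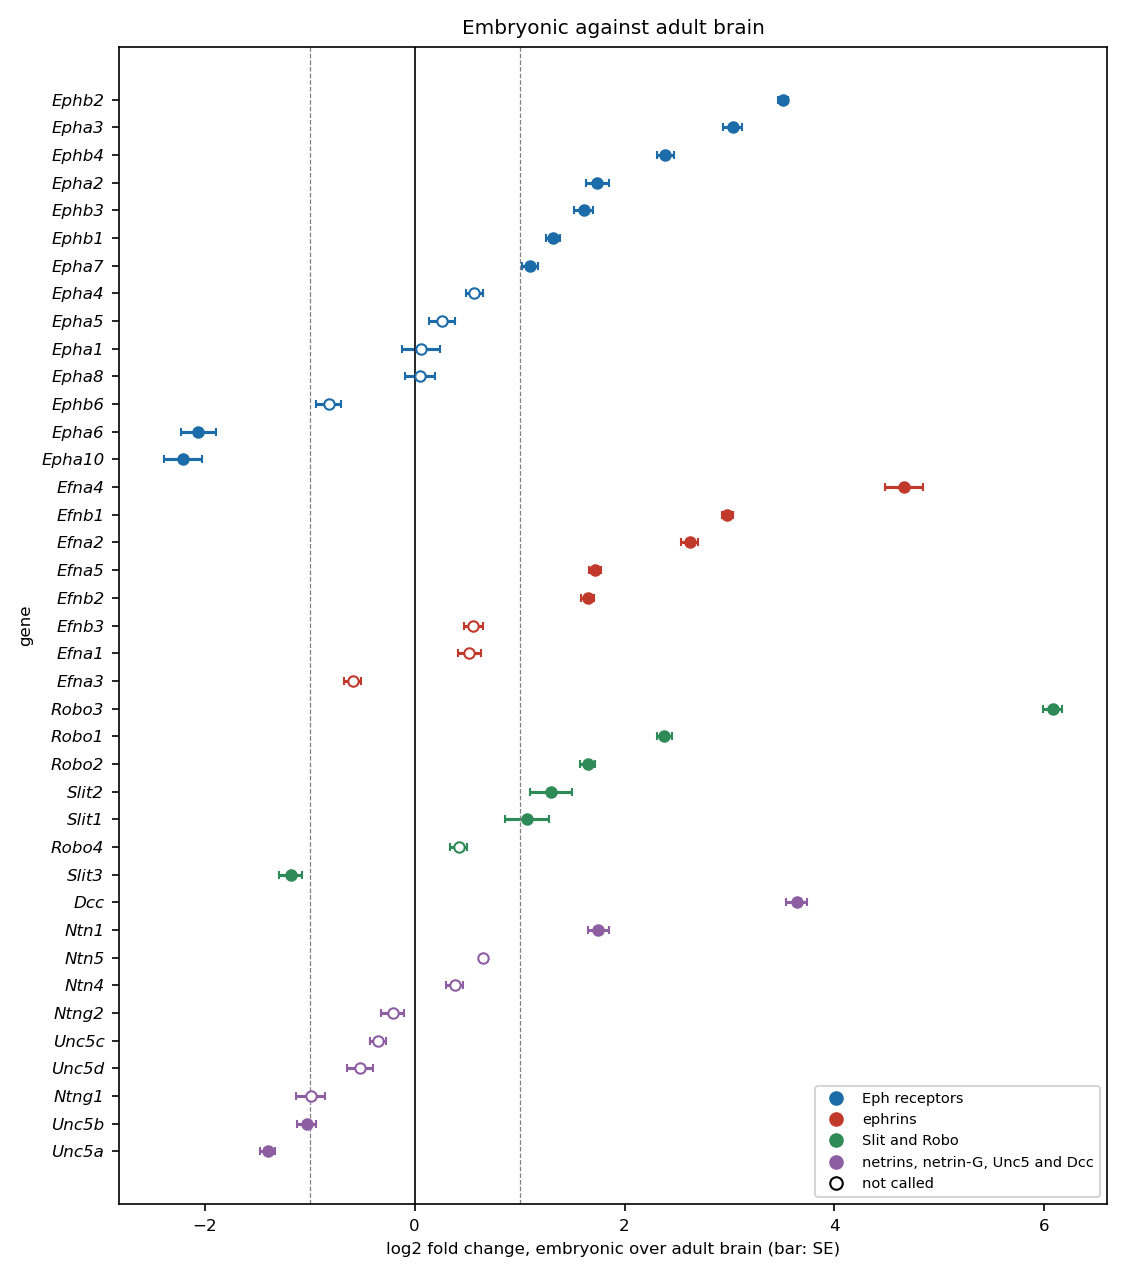
Log2 fold change of each guidance gene, embryonic over adult brain, with its SE as a bar (none is drawn for Ntn5), coloured by family and filled where called; dashed lines mark the fold threshold. Robo3 at 6.08 and Efna4 at 4.66 lie farthest right, and Epha10 at -2.21 and Epha6 at -2.06 farthest left.

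Cell type markers also differed between the stages. Markers of mature neurons summed to 1789 to 5852 TPM in the adult libraries and to 147 to 424 TPM in the embryonic ones, astrocyte markers to 374 to 752 and 30.5 to 90.1 TPM, and the myelin genes Mbp, Mog and Mag to 357 to 10987 and 11.5 to 21.6 TPM. These lists were lower in the embryo and the following ones were higher. The progenitor genes Mki67, Top2a, Nes and Hes5 summed to 5.60 to 50.4 TPM in the adult libraries and to 216 to 1124 TPM in the embryonic ones. Immature neuron genes (Dcx, Stmn2 and Sox11) summed to 151 to 705 TPM in the adult and 875 to 1674 TPM in the embryo, and genes of meninges and mural cells to 12.3 to 117 and 76.8 to 332 TPM. All markers of the progenitor, immature neuron and meningeal lists had a mean of 1 TPM or more at both stages, apart from 1 of 4 progenitor genes in the adult. Their part in the stage differences was not tested. In bulk tissue, fewer cells of a type and less RNA per cell cannot be told apart.

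Within the hypothalamus, THy-PHy was compared with ARH, DMH, LHA, PVH and VMH. Here 19 genes were higher in the embryo (18.9% of all genes) and 4 were lower (19.4% of all genes), with a median log2 fold change of 0.89 beside 0.03 over all genes. Robo3 (16.8 to 21.3 against 0.121 to 2.11 TPM, log2 fold change 5.36 ± 0.18), Efna4 (7.92 to 13.4 against 0.0772 to 1.56 TPM, 4.14 ± 0.32) and Ephb2 (103 to 142 against 11.3 to 20.8 TPM, 3.93 ± 0.08) were highest in fold. Epha3 (3.18 ± 0.16) and Ephb4 (2.50 ± 0.14) led the other receptors, Efna2 (2.87 ± 0.14) and Efnb1 (2.38 ± 0.09) the other ephrins, and Dcc rose 5.54-fold and Ntn1 4.26-fold. Robo1 (1.95 ± 0.12) and Robo2 (1.77 ± 0.12) were the remaining Robo genes called. The adjusted p of the named genes was at most 1.19e-17, apart from 1.28e-16 for Efna4 and 1.66e-15 for Ntn1.

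Lower in the embryonic hypothalamus were Epha10 (-2.40 ± 0.26), Epha6 (-2.40 ± 0.26), Unc5d (4.07 to 6.93 against 8.28 to 38.3 TPM, -1.55 ± 0.21) and Ntng1 (-1.21 ± 0.22). Ntng1 was lost without THy-PHy replicate 2, at -0.96. Slit1 and Slit2, high in this area at both ages, were not called, with embryonic medians of 33.8 and 54.8 TPM and adult medians of 56.3 and 24.8 TPM. Ntn5 was called higher (adjusted p 0.000224) at levels of 0.00 to 0.855 against 0.00 to 0.227 TPM, and its difference was 0.66 on the log2(TPM + 0.5) scale. Efna1 and Epha7 were called at 1.04 and 1.21 on the counts and stood at 0.88 and 0.31 on that scale. Efna1 was lost without ARH replicate 3 (0.99) and Epha7 without THy-PHy replicate 3 (0.98).

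In the hindbrain, H was compared with PB, NTS and DVC. The label of H names no nucleus, so that its match to these nuclei is not known. There 16 genes were higher in the embryo (23.0% of all genes) and 6 were lower (21% of all genes), with a median log2 fold change of 0.62 beside 0.02. Robo3 had 139, 197 and 206 TPM against 0.185 to 0.738 TPM, a log2 fold change of 8.35 ± 0.20 (adjusted p 2.69e-37). Efna4 (4.63 ± 0.37), Epha3 (4.26 ± 0.17), Dcc (3.47 ± 0.19), Efnb1 (3.35 ± 0.10), Ephb2 (3.29 ± 0.09), Epha7 (2.89 ± 0.14), Robo2 (2.50 ± 0.13), Efnb2 (2.36 ± 0.10), Unc5c (24.8 to 34.3 against 5.32 to 8.38 TPM, 2.34 ± 0.12) and Robo1 (2.32 ± 0.13) were among the genes that rose. The lower genes were Epha10 (-2.94 ± 0.27), Unc5b (-2.01 ± 0.16), Unc5a (-1.47 ± 0.12), Ephb6 (-1.34 ± 0.21), Epha6 (-1.22 ± 0.24) and Ntng2 (-1.18 ± 0.21). On the log2(TPM + 0.5) scale Ephb6 and Unc5a differed by only -0.47 and -0.58. Each of these genes had an adjusted p of 1.31e-05 or less, and Ntn5 was called at 0.231 to 0.870 against 0.00 to 0.169 TPM (adjusted p 0.000213).

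The stage difference itself was compared between these areas as an interaction. It was larger in the hypothalamus for 6 genes (3.82% of all genes) and smaller there for 8 (6.04% of all genes). Robo3 (interaction -2.99 ± 0.34 on the log2 scale, adjusted p 2.07e-09), Unc5c (-2.37 ± 0.18, adjusted p 6.36e-14) and Epha7 (-1.67 ± 0.21, adjusted p 3.94e-08) had a stage difference further on the embryonic side in the hindbrain. Unc5c, a repulsive netrin receptor, did not differ past the threshold by stage in the hypothalamus, where its range was 11.2 to 13.7 TPM in the embryo and 8.42 to 16.1 TPM in the adult. Ntn1 (1.57 ± 0.28, adjusted p 3.27e-05), Ntng2 (1.34 ± 0.27, adjusted p 0.000141) and Efnb3 (1.28 ± 0.22, adjusted p 1.53e-05) had the stage difference further on the embryonic side in the hypothalamus.

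**Figure D3:**
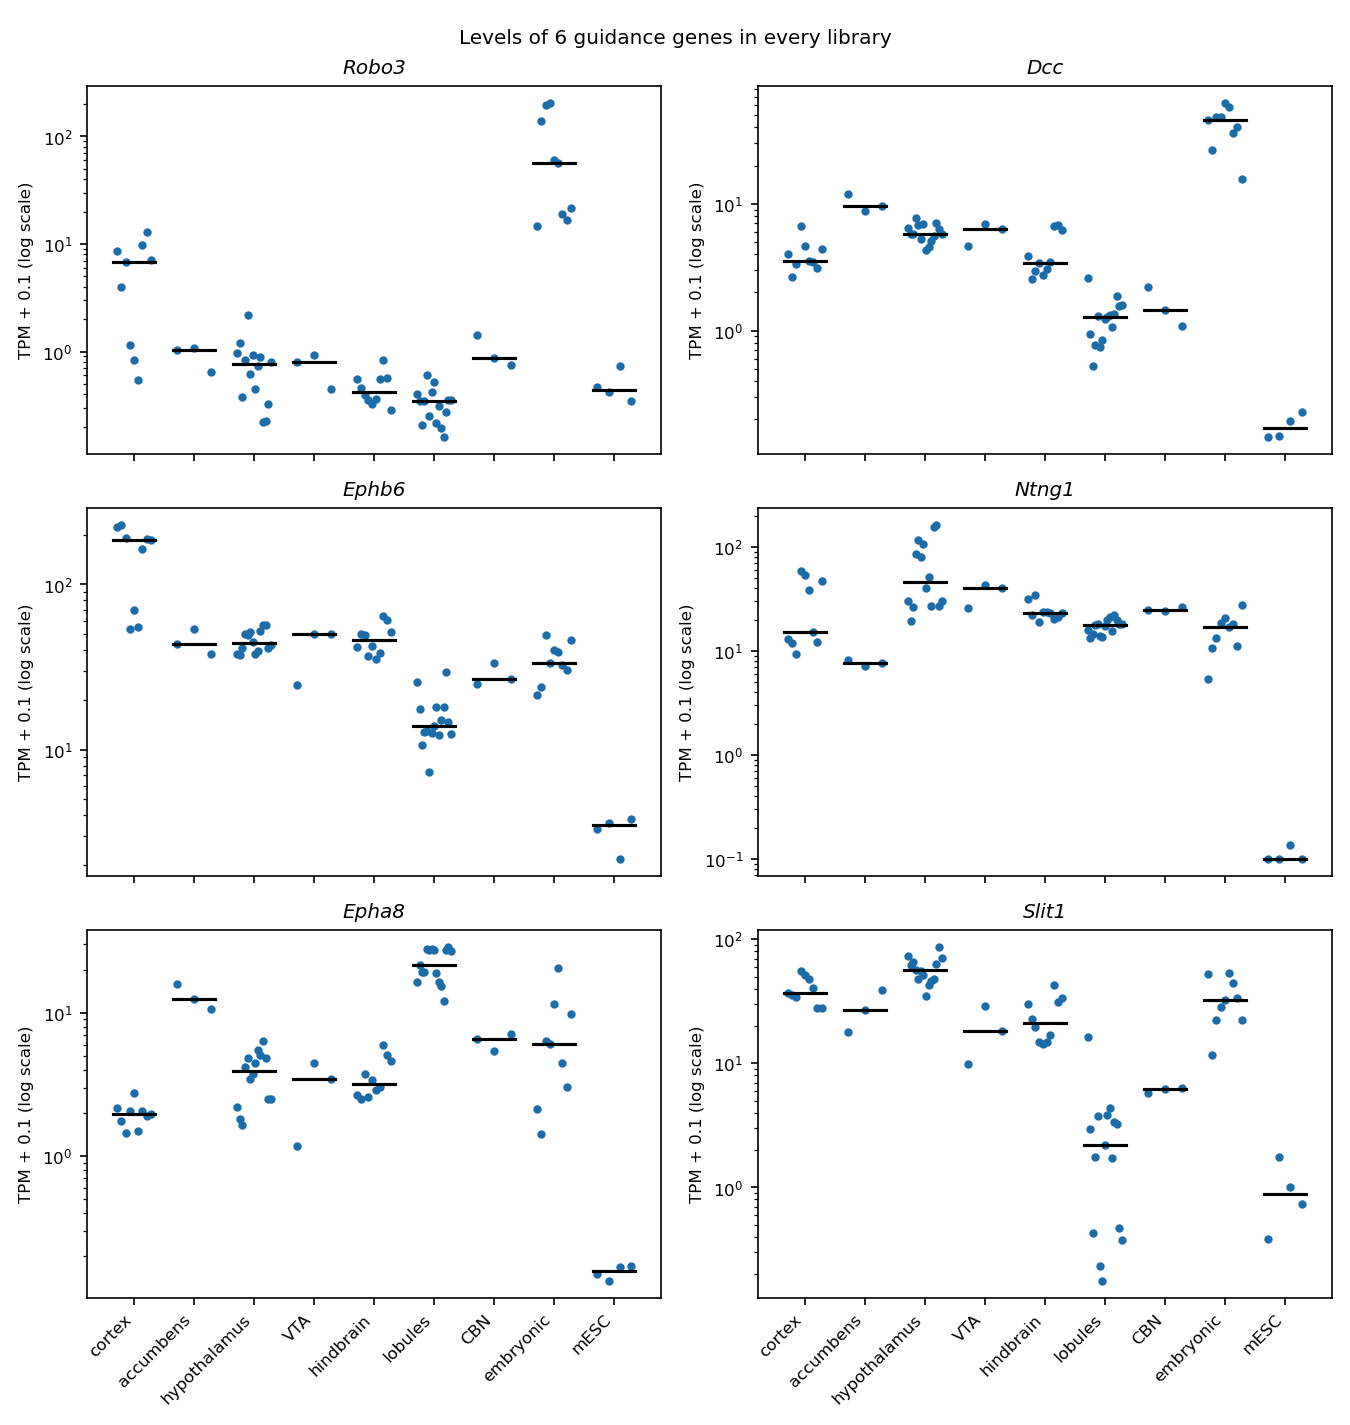
TPM of 6 guidance genes in every library (1 point each), by area, on a log axis with a small constant added to each TPM. A bar marks the median of each area. Robo3 and Dcc separate the embryonic libraries from all adult ones. Among the adult areas, the median of Slit1 is lowest in the cerebellar lobules.

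Parts of the embryonic brain were then compared with each other. THy-PHy against M and H gave 0 genes higher (1.45% of all genes were) and 3 lower (1.71% of all genes). The lower ones were Robo3 (16.8 to 21.3 against 56.5 to 206 TPM, log2 fold change -2.46 ± 0.22, adjusted p 1.93e-12), Epha10 (-1.21 ± 0.27, adjusted p 0.00148) and Epha6 (-1.18 ± 0.28, adjusted p 0.00277), of which Epha6 was lost without THy-PHy replicate 1 (-0.96) and on the log2(TPM + 0.5) scale (-0.89). With edgeR, 7 of the 39 genes had an unadjusted p under 0.05 on the higher side, and DESeq2 and limma on TPM each called 0 of them higher.

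M against H gave 7 genes higher in M (2.62% of all genes) and 2 lower (5.97% of all genes). With limma on log2(TPM + 0.5) the counts were 8 and 2, but over all genes the split turned from 523 higher and 1191 lower to 1516 and 639, with a median log2 fold change of all genes of 0.18. Ntn1 had 41.8 and 121 TPM in M and 3.92, 17.1 and 22.4 TPM in H (log2 fold change 2.24 ± 0.27, adjusted p 1.14e-07). Ntng2 (30.0 and 67.9 against 4.48 to 15.8 TPM, 2.04 ± 0.26, adjusted p 2.31e-07) and Epha10 (26.4 and 21.3 against 1.25 to 8.17 TPM, 2.04 ± 0.31, adjusted p 9.24e-06) were next, followed by Epha8 (1.59 ± 0.30), Ephb1 (1.16 ± 0.18), Epha2 (1.12 ± 0.26) and Efnb3 (1.05 ± 0.22). Lower in M were Unc5c (9.73 and 11 against 24.8 to 34.3 TPM, -1.90 ± 0.19, adjusted p 1.41e-09) and Robo3 (-1.02 ± 0.25, adjusted p 0.00196). With 2 libraries of M, the size of several of these rests on 1 library. Without M replicate 2 the value of Ntn1 was 1.29, of Ntng2 1.18 and of Epha2 0.27, and the number of calls ranged from 6 to 14 as single libraries were left out. Robo3 was lost without H replicate 3 (-0.72) or M replicate 1 (-0.96), and Efnb3 (0.77), Epha2 (0.93) and Ephb1 (0.84) without H replicate 1. On the log2(TPM + 0.5) scale Epha2 differed by 0.44 only.

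mESC were compared with embryonic brain as cells before any neural fate. Of the 39 genes, 30 were lower in mESC (28.6% of all genes) and 2 were higher (27.4% of all genes), with a median log2 fold change of -3.77 beside 0.02 over all genes. With limma on log2(TPM + 0.5) all genes had a median of -0.20, and 31 of the 39 were lower and 1 higher. Epha2 was the exception among the receptors, with 59.5 to 65.8 TPM in the 4 mESC libraries, 2.32 to 7.02 TPM in the embryo and at most 2.32 TPM in the adult. Its log2 fold change was 4.76 ± 0.19, or 27.1-fold, with an adjusted p of 2.28e-28. Ntn5 was called at 0.429 to 0.856 against 0.00 to 1.17 TPM, and its log2 fold change of 1.93 became 0.43 without F and 3.37 without M replicate 1, and was 0.41 on the log2(TPM + 0.5) scale.

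Many axon receptors were near 0 in mESC. Summed over the 4 libraries, Ntng1 had 1 count and Epha3 had 3, for which no fold is given. Robo2 had 0.0164 to 0.0505 TPM against 45.1 to 117 TPM in the embryo (log2 fold change -10.21 ± 0.28), Ephb1 0.0688 to 0.208 against 22.6 to 151 TPM (-9.04 ± 0.25) and Dcc 0.0447 to 0.129 against 15.6 to 62.6 TPM (-8.80 ± 0.37). Robo3 (-6.43 ± 0.26), Slit1 (-6.00 ± 0.57), Efnb1 (-5.64 ± 0.15), Unc5a (-5.10 ± 0.16), Efna5 (-4.22 ± 0.15) and Efnb3 (-4.13 ± 0.19) were also lower, all with an adjusted p of at most 9.39e-14. Ephb4 (12.4 to 16.1 TPM), Ephb3 (10.7 to 13.1 TPM), Epha4 (14.1 to 28.3 TPM), Efna4 (7.45 to 10.4 TPM) and Unc5b (5.80 to 7.04 TPM) overlapped the embryonic range and were not called.

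Among the adult areas, the cortex differed from the other regions in 21 of the 39 genes, with 17 higher (8.16% of all genes) and 4 lower (7.97% of all genes). The median log2 fold change was 0.68, beside -0.03 over all genes. The higher genes were 7 of 14 Eph receptors, 3 of 8 ephrins, 4 of 7 Slit and Robo genes and 3 of the 10 netrin group genes. In the comparisons of 1 adult area with the rest, the other regions overlap between comparisons and so are not independent.

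Ephb6, an Eph receptor without kinase activity, had 191 to 230 TPM in ACA, 163 to 188 TPM in FRP and 53.7 to 69.9 TPM in ENT, and 7.24 to 64.1 TPM elsewhere (log2 fold change 2.08 ± 0.09, adjusted p 2.13e-26). Epha4, a receptor for ephrins of both classes, had 129 to 158 TPM in ACA, 91.2 to 114 TPM in FRP and 36.7 to 57.5 TPM in ENT (1.92 ± 0.07, adjusted p 1.24e-29). ACB was at 73.7 to 97.3 TPM, and PVH, at 43.6 and 52.1 TPM, lay within the range of ENT. Epha7 was at 32.7 to 60.0 TPM (1.81 ± 0.07, adjusted p 1.05e-27). Of the ligands, Efnb2 (29.9 to 46.1 TPM, 1.72 ± 0.05), Efna3 (39.7 to 62.6 TPM, 1.53 ± 0.06) and Efnb1 (11.4 to 17.3 TPM, 1.11 ± 0.06) were higher. Epha1 (-1.80 ± 0.22) and Epha8 (-1.66 ± 0.15) were lower in the cortex. On the log2(TPM + 0.5) scale Epha1 (-0.93) and Efnb1 (0.91) fell short of the fold threshold.

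Robo3 was higher in ACA and FRP than in ENT and the other adult regions. FRP had 9.69, 12.7 and 6.96 TPM and ACA 8.44, 3.86 and 6.68 TPM, while ENT had 0.438 to 1.06 TPM and the other adult regions 0.0604 to 2.11 TPM (log2 fold change 3.68 ± 0.15, adjusted p 8.58e-28). The cortical areas differed among themselves in Robo3 by a range of 3.83 on the log2 scale (adjusted p 2.41e-14). Robo2 was at 44.0 to 109 TPM in the cortex and 6.34 to 56.9 TPM elsewhere (2.05 ± 0.07), and Slit1 (1.51 ± 0.20) and Slit3 (1.47 ± 0.07) were higher as well. Neither was highest in the cortex. Slit1 was at 28.0 to 55.6 TPM there, 34.7 to 87.2 TPM in the hypothalamus and 0.0760 to 16.3 TPM in the lobules. Slit3 was at 13.7 to 27.0 TPM in the cortex and 23.7 to 30.0 TPM in ACB.

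Netrin signalling genes split in the cortex. Ntn1 was at 2.64 to 4.57 TPM in all 9 cortical libraries, under every other adult library (4.92 to 38.9 TPM), with a log2 fold change of -2.0 ± 0.14 and an adjusted p of 1.08e-18. Unc5b was likewise at 3.36 to 6.48 TPM against 6.98 to 51 TPM (-2.25 ± 0.09, adjusted p 2.48e-27), whereas Unc5a was at 45.1 to 78.7 TPM against 20.1 to 44.3 TPM (1.17 ± 0.05, adjusted p 3.5e-26). Ntng2 was higher (1.19 ± 0.09). Both Unc5a and Ntng2 stood at 0.99 on the log2(TPM + 0.5) scale, just under the fold threshold. Ntn5 was low everywhere but highest here, at 0.658 to 2.18 TPM (fitted log2 fold change 4.23 ± 0.34, adjusted p 3.7e-15), a value that depends on how counts of 0 are treated, since all VTA, VMH and CBN libraries were at 0.

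Within the cortex 9 genes differed among ACA, FRP and ENT (5.00% of all genes). Ntng1, at 38.6 to 58.0 TPM in ENT and 9.33 to 12.8 TPM in ACA (range 2.31, adjusted p 2.01e-08), Ephb6 (2.06), Epha4 (1.55), Efnb3 (1.49, highest in ENT), Ntn4 (1.43, highest in FRP), Unc5d (1.28), Ephb3 (1.25) and Efna5 (1.25, highest in ACA) joined Robo3. ENT was on the low side of Ephb6, Epha4, Ephb3 and Robo3 and on the high side of Ntng1, Efnb3 and Unc5d.

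**Figure D4:**
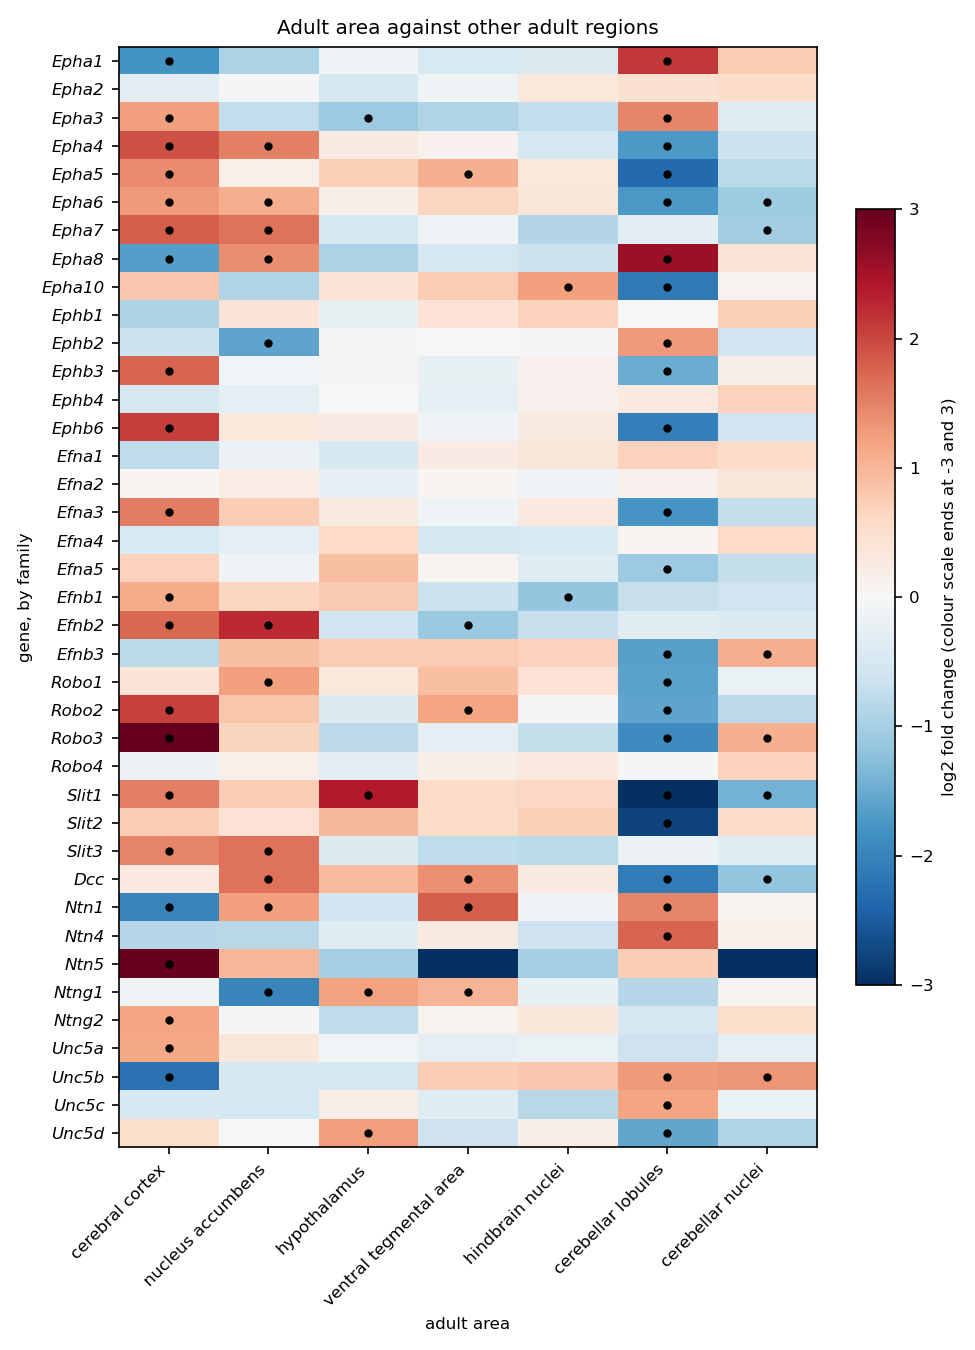
Log2 fold change of each guidance gene (rows, by family) in each adult area against the other adult regions (columns), with a dot where called; colours end at -3 and 3. The cortex column has 17 genes called higher and the cerebellar lobules column has 16 called lower.

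In the nucleus accumbens 9 genes were higher (7.26% of all genes) and 2 lower (5.52% of all genes). Efnb2 had 69.0, 74.2 and 82.1 TPM, above all other adult libraries, which reached 46.1 TPM (log2 fold change 2.23 ± 0.08, adjusted p 6.52e-30). Dcc, at 8.63 to 11.8 TPM, was also above the other adult libraries (at most 7.59 TPM; 1.64 ± 0.17, adjusted p 9.68e-12), as was Robo1 at 28.2 to 35.9 TPM (1.22 ± 0.11, adjusted p 2.49e-13). Slit3 (1.63 ± 0.11), Epha7 (1.62 ± 0.12), Epha4 (1.5 ± 0.11), Epha8 (1.40 ± 0.17), Ntn1 (1.22 ± 0.16) and Epha6 (1.09 ± 0.17) made up the rest, of which Epha6 stood at 0.83 without ACB replicate 1. Ephb2 was lower (4.42 to 7.90 TPM, -1.59 ± 0.11), and Ntng1 had 7.11 to 8.13 TPM, under every other adult library (-1.98 ± 0.24, adjusted p 6.15e-10).

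In the hypothalamus 3 genes were higher (5.88% of all genes) and 1 was lower (2.92% of all genes), shares of 39 close to those of all genes. With limma on log2(TPM + 0.5) the split was 4 and 0. Slit1 had 34.7 to 87.2 TPM (median 56.3) against 0.0760 to 55.6 TPM elsewhere (log2 fold change 2.39 ± 0.18, adjusted p 6.05e-17). Unc5d (8.28 to 38.3 TPM, 1.25 ± 0.09, adjusted p 3.45e-18) and Ntng1 (19.2 to 163 TPM, 1.21 ± 0.10, adjusted p 8.26e-16) were higher, and Epha3 (0.438 to 2.02 TPM, -1.08 ± 0.10, adjusted p 8.26e-13) was lower, though by only -0.72 on the log2(TPM + 0.5) scale.

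The nuclei of the hypothalamus differed from each other in 21 of the 39 genes (13.1% of all genes). PVH had the highest Ntng1 of all 24 groups, with 154 and 163 TPM, ahead of DMH at 79.1 to 117 TPM, LHA at 26.7 to 51 TPM and ARH at 19.2 to 30.0 TPM (range 2.75 on the log2 scale, adjusted p 6.39e-12). Epha1 had 2.51 and 2.91 TPM in PVH and at most 0.928 TPM in the other nuclei (3.35, adjusted p 2.64e-09, and 4.50 without VMH replicate 1), and Ntng2 was lowest in PVH and highest in LHA (27.5 to 34.3 TPM, range 2.17).

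Several ephrins were highest in ARH. Efnb1 had 24.3 to 29.1 TPM there and at most 16.8 TPM in the other nuclei (1.83, adjusted p 7.13e-16), Efna5 34.0 to 37.5 against at most 23.6 TPM (1.49, adjusted p 4.43e-12), and Efnb2 a mean of 25.6 TPM (1.34). Efna1 also differed among the nuclei (1.51), with its highest mean, 5.66 TPM, in LHA. Slit2 had 59.0 to 63.1 TPM in ARH and 19 to 47.6 TPM in the other nuclei (1.54, adjusted p 0.0237), and Unc5d 32.0 to 38.3 TPM (1.83). Slit2 was lost when any of the ARH libraries was left out. The pituitary markers Cga, Fshb, Prl and Gh summed to 68.9 to 105 TPM in ARH and to at most 14.6 TPM in the other nuclei, and meningeal and mural markers to 77.8 to 109 TPM in ARH and at most 34.7 TPM in the others. Their part was not tested.

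Slit1 was highest in VMH (87.2 and 71.2 TPM) and did not pass the test among nuclei. Slit3 (1.51), Robo2 (1.22) and Robo3 (2.08, at no more than 2.11 TPM) differed among the nuclei as well. LHA had the highest Unc5b, at 30.3 to 36.4 TPM (2.0, adjusted p 3.54e-12). Epha3 (2.05), Epha8 (1.72), Epha7 (1.64), Epha6 (1.21), Epha10 (1.20), Ephb1 (1.15), Epha5 (1.11) and Ntn1 (1.19) made up the other receptors and ligands with a call. Epha5 was lost without any of the ARH libraries, Ntn1 without either PVH library and Robo3 without PVH replicate 1. With limma on the log2(TPM + 0.5) scale Epha10, Ephb1, Ntn1 and Robo2 were not called among the nuclei.

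In the VTA 5 genes were higher (6.90% of all genes) and 1 was lower (3.64% of all genes). This split depended on the scaling, since limma on log2(TPM + 0.5) gave 1 higher and 5 lower and on log2(TPM + 0.1) 1 and 7. There all genes shifted as well, from 1378 higher and 727 lower to 348 and 1898 with log2(TPM + 0.5), where their median log2 fold change was -0.39. Ntn1 had 12.5, 38.9 and 33.9 TPM in replicates 1 to 3 (log2 fold change 1.81 ± 0.15, adjusted p 2.55e-14), and Dcc 4.54, 6.87 and 6.24 TPM (1.38 ± 0.18, adjusted p 7.54e-09). These Dcc levels lay within those of the hypothalamus (4.25 to 7.59 TPM) and under those of ACB (8.63 to 11.8 TPM), while the lobules had 0.424 to 2.48 TPM. Replicate 1 was lowest in both Ntn1 and Dcc on the TPM scale and is the library with the high mitochondrial share. Robo2 (1.19 ± 0.11), Epha5 (1.06 ± 0.17) and Ntng1 (1.03 ± 0.17) were called with it and stood at 0.91, 0.67 and 0.85 without it, and on the log2(TPM + 0.5) scale at 0.30, 0.44 and 0.45, where Dcc stood at 0.71. Efnb2 was lower (-1.12 ± 0.12). The dopamine neuron markers Th, Slc6a3 and Ddc summed to 610 TPM in replicate 1 and to 1738 and 2029 TPM in the others.

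The hindbrain nuclei had 1 gene higher (5.18% of all genes) and 1 lower (2.66% of all genes). Epha10 was at 26.4 to 40.0 TPM against 2.59 to 31.2 TPM (log2 fold change 1.24 ± 0.11, adjusted p 1.91e-14) and Efnb1 at 2.99 to 4.99 TPM (-1.17 ± 0.07, adjusted p 2.94e-20). Among the 3 nuclei only Dcc differed (2.89% of all genes), at 6.10 to 6.71 TPM in PB against 2.47 to 3.80 TPM in NTS and DVC (range 1.04, adjusted p 0.00809). That call was lost without DVC replicate 2 or 3 or PB replicate 2. Choroid plexus genes (Ttr, Kl and Folr1) ranged from 4.09 to 10541 TPM across the NTS libraries, and their part in these values was not tested.

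In the cerebellar lobules 16 genes were lower (9.42% of all genes) and 8 higher (8.55% of all genes), with a median log2 fold change of -0.50 beside 0.02 over all genes. Slit1 was at 0.0760 to 16.3 TPM (median 2.10) against 5.64 to 87.2 TPM (median 35.0) in the other adult libraries, a log2 fold change of -4.45 ± 0.26 or 21.9-fold lower (adjusted p 3.48e-21). Slit2, at 0.601 to 14.7 TPM, did not overlap the others at 14.8 to 63.1 TPM (-2.77 ± 0.22, adjusted p 1.75e-16), and Robo1, at 4.56 to 9.65 TPM, lay under the others at 9.93 to 35.9 TPM (-1.61 ± 0.07, adjusted p 8.54e-26). Robo3 (-1.89 ± 0.18) and Robo2 (-1.58 ± 0.07) were lower too, so that 5 of 7 Slit and Robo genes had a lower level in the lobules, with Robo3 at -0.95 on the log2(TPM + 0.5) scale.

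Epha5 (-2.34 ± 0.11), Epha10 (-2.11 ± 0.12) and Ephb6 (-2.05 ± 0.10) were the receptors with the largest decrease, followed by Epha4, Epha6 and Ephb3. Of the ligands Efna3 (-1.76 ± 0.07), Efnb3 (-1.64 ± 0.08) and Efna5 (-1.08 ± 0.06, and -0.92 on the log2(TPM + 0.5) scale) were lower, and so were Dcc (0.424 to 2.48 TPM, -2.10 ± 0.13) and Unc5d (-1.55 ± 0.10). Each of these had an adjusted p of at most 5.83e-20 except Epha6 (2.67e-19).

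Another set of genes was high in the lobules. Epha8 was at 11.9 to 28.8 TPM against 1.07 to 15.7 TPM (log2 fold change 2.56 ± 0.09, adjusted p 8.21e-30), Epha1 at 1.04 to 3.77 against 0.0348 to 2.91 TPM (2.12 ± 0.13, adjusted p 4.11e-20), and Epha3 at 3.07 to 6.01 TPM (1.47 ± 0.08, adjusted p 8e-22), with Ephb2 (1.28 ± 0.05) as the fourth receptor. Ntn4, a netrin of basement membranes, was at 12.9 to 22.5 TPM in the 15 lobule libraries, above the other adult libraries at 2.67 to 9.60 TPM (1.74 ± 0.06, adjusted p 2.84e-31). Ntn1 (16.8 to 34.9 TPM, 1.46 ± 0.09), Unc5b (33.0 to 51 TPM, 1.28 ± 0.06) and Unc5c (15.8 to 28.1 TPM, 1.18 ± 0.06) rose with it.

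Between the lobules 9 genes differed (11.7% of all genes). Efnb3 was at 73.9 to 84.5 TPM in FL and 15.4 to 32.4 TPM in CENT2, CUL4-5 and UVU (range 2.01 on the log2 scale, adjusted p 4.25e-15). Slit1 had 16.3 TPM in CENT2 replicate 1 and 0.327 to 2.87 TPM in the other 3 CENT2 libraries, and its range of 3.02 (adjusted p 0.00012) was 1.63 without that library and 4.37 without UVU replicate 1. Slit2 was at 8.53 to 14.7 TPM in FL and 1.63 to 4.66 TPM in CUL4-5 (range 2.67, adjusted p 0.000209, and 3.37 without CUL4-5 replicate 1). It had 13.1 TPM in the same CENT2 library and 10.5 TPM in UVU replicate 1. Summed Purkinje cell markers (Pcp2, Calb1 and Car8) were 2386 TPM and the hypothalamus markers 10.1 TPM in CENT2 replicate 1, beside 3315 to 3654 and 0.142 to 0.345 TPM in the other CENT2 libraries. Ntng2 (1.61), Epha10 (1.46), Ephb3 (1.12), Ephb2 (1.07), Epha5 (1.02) and Robo3 (1.76, at no more than 0.504 TPM) were the others. Ephb2 was lost without FL replicate 4, Robo3 without CUL4-5 replicate 4 and Epha5 without several single libraries. With limma on the log2(TPM + 0.5) scale Slit1, Ephb3, Epha5 and Robo3 were not called. Mbp, Mog and Mag summed to 5099 to 7075 TPM in FL and to 719 to 2142 TPM in the other lobules, alongside Efnb3. Choroid plexus genes were at 2074 TPM in UVU replicate 1, at 7.60 and 2.43 TPM in the other UVU libraries and at 33.2 to 3021 TPM in FL. The part of other cells in these values was not tested.

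The cerebellar nuclei had 3 genes higher (8.04% of all genes) and 4 lower (2.76% of all genes). With limma the split was 1 and 6 on log2(TPM + 0.5) and 1 and 8 on log2(TPM + 0.1), and over all genes it went from 1605 and 550 to 717 and 576 with the former. Unc5b was at 36.3 to 48.7 TPM (log2 fold change 1.32 ± 0.11, adjusted p 1.41e-14), Efnb3 at 99.6 to 156 TPM (1.09 ± 0.13, adjusted p 5.16e-10) and Robo3 at 0.651 to 1.32 TPM (1.06 ± 0.23, and 0.21 on the log2(TPM + 0.5) scale). Slit1 (5.64 to 6.23 TPM, -1.41 ± 0.42, adjusted p 0.00513), Dcc (-1.18 ± 0.24), Epha6 (-1.06 ± 0.22) and Epha7 (-1.04 ± 0.16) were lower, of which Dcc, Epha6 and Epha7 were lost without CBN replicate 3. Efnb3 (0.96) and Epha6 (-0.95) were also lost without CBN replicate 2, and Efnb3 stood at 0.97 on the log2(TPM + 0.5) scale. Choroid plexus genes summed to 3495 to 12520 TPM in CBN and Mbp, Mog and Mag to 6534 to 10987 TPM, and their part was not tested.

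The transcripts behind the gene values were examined as a description, since single reads of 33 cycles leave isoforms that share sequence as estimates. Among genes with 1 TPM or more in every brain library, 3.13% had a transcript whose share of the gene's TPM did not overlap between the 9 embryonic and 57 adult libraries. Of 22 guidance genes tested this held for 1, Ephb2. The longest model, Ephb2-202 (10902 bases, chr4:136647539-136835988 in GRCm38, coding), made up 41.9% to 77.7% of Ephb2 TPM in the embryo (median 58.8%) and 2.82% to 27.3% in the adult (median 14.2%). Ephb2-201, a shorter transcript model (4804 bases, also coding), had medians of 16.5% and 50.8%. The coding parts of both models are almost equal in length, at 2958 bases in Ephb2-202 and 2961 bases in Ephb2-201. At a minimum of 5 TPM, 8 guidance genes were left, Ephb2 not among them, and 0 of them met this, beside 3.70% of all genes at that minimum.

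**Figure D5:**
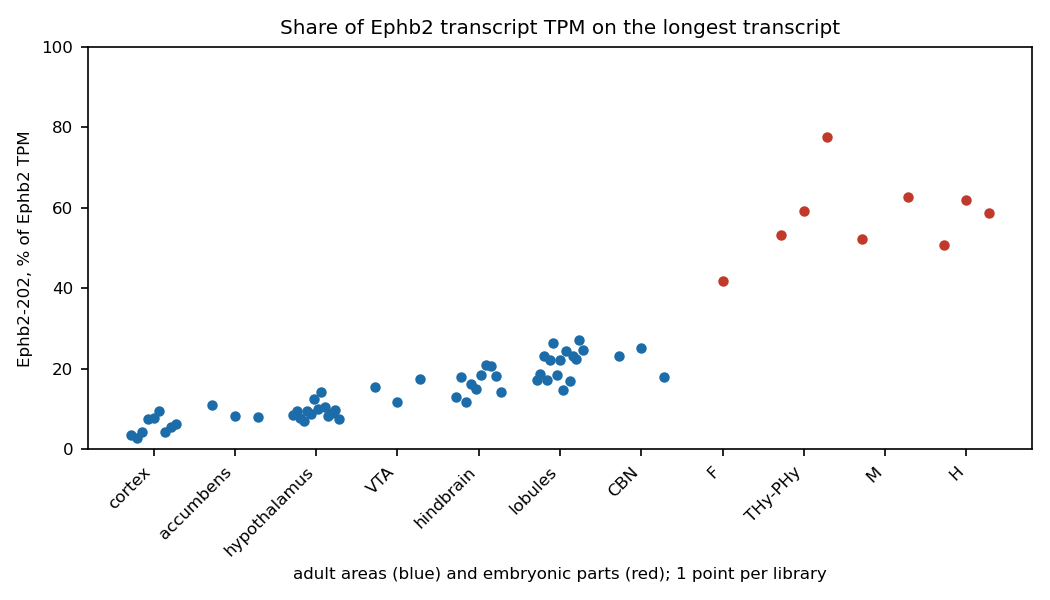
Share of Ephb2 TPM on the longest transcript model, Ephb2-202 (y axis, percent), in each of the 57 adult (blue) and 9 embryonic (red) libraries, by area. The adult libraries lie between 2.82% and 27.3% and the embryonic ones between 41.9% and 77.7%.

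For Robo3 much of the level lay on models that do not code for protein, with a median of 85.4% of its TPM in the embryo and 83.1% in the adult. In H the mean gene TPM of 181 included 118 TPM on Robo3-204, a retained-intron model of 668 bases, and 17.3 TPM on the coding model Robo3-202. That coding model had 18.3 TPM in M, 4.38 TPM in F, 3.53 TPM in THy-PHy, 3.00 TPM in FRP and 1.09 TPM in ACA. Slit2 (45.2% in the embryo, 44.9% in the adult), Ntng1 (50.1% and 46.3%) and Epha4 (48.9% and 56.5%) also had large median shares on such models.

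The partners and effectors of these pathways were read from a list of 45 genes, all of them tested. Between embryo and adult, 9 were higher (20%, beside 18.2% of all genes) and 8 lower (17.8%, beside 19.5%), shares close to those of all genes, with a median log2 fold change of 0.35 beside 0.01. Draxin, a secreted repellent that binds Dcc, was highest (7.05 ± 0.14, adjusted p 3.35e-42), Vav2, an exchange factor used by Eph receptors, was higher (1.84 ± 0.07, adjusted p 6.82e-29), and Ngef, the exchange factor ephexin of EphA receptors, was lower (-3.31 ± 0.19, adjusted p 2.39e-22).

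Across adult areas Kalrn was called in 6 and Ngef in 5 of the 7 areas. In the cortex 8 were higher and 2 lower (17.8% and 4.44%, beside 8.16% and 7.97% of all genes), led by Kalrn, an exchange factor at synapses (3.42 ± 0.05), Ngef (2.62 ± 0.10) and Chn1, a Rac inhibitor downstream of Epha4 (2.35 ± 0.04). In ACB 6 were higher and 1 lower (13.3% and 2.22%, beside 7.26% and 5.52%), led by Ngef (3.15 ± 0.13), Kalrn (2.12 ± 0.08) and Draxin (1.82 ± 0.32). In the lobules 3 were higher and 7 lower (6.67% and 15.6%, beside 8.55% and 9.42%), with Ngef (-2.46 ± 0.11), Tiam1, a Rac exchange factor (2.11 ± 0.05), and Ablim1, an actin-binding protein (1.56 ± 0.04), the largest. The lower genes were 6.67% of the list in the VTA, 4.44% in the hindbrain nuclei and 6.67% in CBN, beside 3.64%, 2.66% and 2.76% of all genes. In the VTA 0 were higher and 3 lower (Ngef -1.29, Kalrn -1.21 and Tiam1 -1.18), in the hindbrain nuclei 0 and 2 (Tiam1 -1.46 and Kalrn -1.35), in CBN 0 and 3 (Kalrn -1.60, Flrt3 -1.28 and Ngef -1.03), and in the hypothalamus 0 and 0. Higher in these areas were 6.90%, 5.18% and 8.04% of all genes, and in the hypothalamus 5.88% were higher and 2.92% lower. By edgeR, an unadjusted p under 0.05 was found on the side with 0 calls for 17 genes in the VTA, 10 in the hindbrain nuclei and 12 in CBN, and in the hypothalamus for 11 higher and 21 lower. No other tool was run for this list by area.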

How the data were processed

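Total RNA was sequenced as poly(A)-selected, strand-specific single reads of 33 cycles, with PicoPure extraction for brain and RNeasy for mESC. Per the study's methods the authors quantified the reads with kallisto on GRCm38 transcripts and deposited estimated counts per transcript, TPM per transcript, and TPM per gene as the sum over a gene's transcripts. CASAVA 1.8.2 is named in the submitters' processing notes.

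Of 109282 transcripts, 107899 were matched to a gene, and the others held 0.43% to 0.79% of a library's counts. The deposited estimated counts were summed per gene, rounded to whole numbers and tested with edgeR 4.0.16 (quasi-likelihood test, TMM scaling, filterByExpr) in R 4.3.3, in 1 fit over 70 libraries with 1 coefficient per group. Areas of several groups were compared as unweighted means of their groups. P-values were adjusted over 19960 genes by the Benjamini-Hochberg method. Calls needed an adjusted p below 0.05 together with a log2 fold change of more than 1 in size. Differences among several groups were tested with 1 F test and called at the same p where fitted group levels spanned more than 1 on the log2 scale. Levels are TPM as deposited, and ± is the SE of the fit. The test was also run on counts simulated for the adult regions, with changes set in the cortex only. That run used the same spread for every gene and did not cover the embryonic or mESC groups, and its outcome is not given here. Promoters and transcript shares were read as descriptions. Figures and tables used Python 3.11.15 and pandas 2.3.3.

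DESeq2 1.42.0, limma 3.58.1 on log2(TPM + 0.5) and log2(TPM + 0.1), RLE scaling, no filter, a replicate block and fits leaving out libraries were the alternatives. Depth ran from 9074581 to 22229582 estimated counts per library, and p-values measure the spread between pools of animals.

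The guidance genes, the 45 partners and effectors and the marker lists were chosen with earlier results of these data known, so no list is independent support for its own direction. Every guidance gene is named at least once. For each comparison up to 3 called genes per family and direction, by size of the fold change, are given with their test. For the partners, up to 3 called genes per comparison are given. Sums of some marker lists are not reported here.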

Additional observations from a re-analysis of the deposited data

Results flagged for a closer look

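Single libraries stood apart from the rest of their group in 15 of 178 sets of values with 4 libraries each and a mean of at least 1 TPM (8.43%), and about 1 in 20 is marked by chance. CENT2 replicate 1 accounted for 4 of them. It had 16.3 TPM of Slit1 where the other CENT2 libraries had 0.327 to 2.87 TPM, 19.6 TPM of Epha5 against 4.50 to 5.43 TPM, 18.1 TPM of Epha4 against 6.90 to 8.60 TPM, and 6.57 TPM of Robo4 against 3.59 to 4.10 TPM. Its dopamine neuron markers summed to 91.3 TPM against 7.04 to 44.5 TPM and its granule cell markers to 1046 against 1311 to 1696 TPM.

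In the culmen, CUL4-5 replicate 1 had 4.66 TPM of Slit2 against 1.63 to 2.02 TPM, 6.37 TPM of Unc5d against 3.64 to 3.89 TPM, and 9.57 TPM of Slit3 against 11 to 11.2 TPM. CUL4-5 replicate 3 had 27.3 TPM of Unc5c against 22.9 to 23.1 TPM, and CUL4-5 replicate 4 had 27.3 TPM of Ntn1 against 32.8 to 33.6 TPM. In the flocculus, FL replicate 3 had 6.72 TPM of Efna2 against 8.94 to 9.33 TPM.

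In the nucleus of the solitary tract, NTS replicate 1 had 0.804 TPM of Epha3 against 1.13 to 1.17 TPM, 5.50 TPM of Ntn4 against 3.52 to 3.82 TPM, and 18.8 TPM of Ntng1 against 22.9 to 23.5 TPM. NTS replicate 4 had 8.56 TPM of Unc5d against 6.38 to 6.72 TPM. In the hypothalamus, DMH replicate 2 had 7.35 TPM of Robo4, the endothelial Robo, against 3.41 to 3.47 TPM.

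The stage difference differed between the hypothalamus and the hindbrain for 14 genes by the interaction in the edgeR quasi-likelihood test. On the log2 scale it was further on the embryonic side in the hypothalamus for Ntn1 by 1.57, Ntng2 by 1.34, Efnb3 by 1.28, Epha2 by 1.26, Ephb1 by 1.25 and Unc5b by 1.07. In the other direction the interaction was -2.99 for Robo3, -2.37 for Unc5c, -1.67 for Epha7, -1.18 for Epha6, -1.13 for Epha4, -1.11 for Unc5d, -1.08 for Epha3 and -1.06 for Epha5. Of these, Ephb1, Epha3 and Epha5 fell short of the fold threshold without H replicate 1, Unc5d without H replicate 2 or THy-PHy replicate 3, Unc5b without H replicate 3 or VMH replicate 2, and Epha5 and Epha6 without THy-PHy replicate 1. With limma on log2(TPM + 0.5) Epha2 (0.73), Epha5 (-0.95) and Epha6 (-0.88) were not called.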

How the results depend on the processing

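Of 242 calls on guidance genes, all 242 kept their direction and call with RLE scaling, with no filter and with the replicate block, 202 of the 202 that DESeq2 could give did so, and 239 did without VTA replicate 1. With limma on log2(TPM + 0.5), 203 were kept and 39 fell short, and with log2(TPM + 0.1) 213 and 29. With no filter on TPM the numbers were 202 and 40. No alternative turned a direction. The replicate numbers of the labels were not taken to pair the samples, since deviations of same-numbered libraries had a median correlation of 0.008 (-0.43 to 0.42) and only 51 of 669 pairs were over 0.1. Not every library correlated best with its own number, but 32 of 69 did, which is a hint from the data and not from the design. The replicate block left 24 guidance genes called between embryo and adult, as without it. The labels do not tie the replicate number to a batch or a set of mice. That block therefore cannot test for shared animals or batch, and the main test took libraries of different regions as independent.

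The split between higher and lower moved with limma in the VTA, from 5 and 1 to 1 and 5 on log2(TPM + 0.5) and 1 and 7 on log2(TPM + 0.1), and in CBN, from 3 and 4 to 1 and 6 and to 1 and 8. Total counts that moved were those of differences among the hindbrain nuclei (1, and 0 with limma on log2(TPM + 0.5) with or without the filter and 2 on log2(TPM + 0.1)), among the lobules (9, and 5 with limma on log2(TPM + 0.5) with or without the filter) and of leading transcripts (1, and 0 at a minimum of 5 TPM). As single libraries were left out, the number called ranged from 2 to 5 for THy-PHy against M and H (5 without THy-PHy replicate 3), from 6 to 14 for M against H (14 without H replicate 2), from 4 to 7 for CBN (4 without CBN replicate 3) and from 0 to 1 among the hindbrain nuclei (0 without DVC replicate 3 or PB replicate 2). The cause of these shifts was not tested. Adult libraries were not left out in turn for the embryonic against adult brain comparison, nor were libraries of the other regions for each adult area, and DESeq2 gave no value for differences among several groups.

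Levels near 0 TPM, such as those of Ntn5, rest on few counts, and a difference on them was limited by depth. With the highest group read in CPM in place of TPM, 32 of 39 genes had the same one.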
